A study of Sus scrofa with 27 samples.

Results

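Genes of fatty acid uptake, binding, activation and oxidation were followed in mural granulosa cells, the cells that line the inner wall of the ovarian follicle, of sows on a full or a restricted diet. The list named 39 genes, and its members were the listed symbols with a pig Ensembl identifier and a mean count of at least 5 over all libraries. An identifier was found for 38 of them, all 38 passed the count limit, and these stand among 11385 named genes tested. CD36 was not analysed here. FABP3 led the list because of its rise after restriction, so its difference between the diets is given as a description with no test. The member nearest to the count limit was CPT1B, and no listed gene with an identifier fell below it.

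All animals were wild type Large White by Norwegian Landrace sows, sampled on day 2 after weaning. Full-fed sows (FF, n = 13) received 6.5 kg of feed per day and restricted sows (RES, n = 14) received 3.25 kg per day over the last 2 weeks of lactation. The sources differ on the feeding after weaning, since the labels describe full feeding of both and the methods 1 fixed ration for both. Each library held granulosa cells of 1 sow, taken per the methods by laser capture from the largest healthy follicle. This step was meant to leave out theca, vessels and stroma. The study reports that this follicle was smaller on average in RES than in FF sows. Follicle size entered no comparison here, so diet and follicle size cannot be told apart. The sows used were those with the highest weight loss in RES and the lowest in FF. This choice sets the groups further apart and limits each as a picture of its diet. The labels state that 1 FF sample, FF09, was left out for its RNA integrity. FF sow 10, which had the lowest RNA integrity number in the study's own table of the sows sequenced, was kept. Its most abundant gene took 26.8% of its counts, against 10.2% to 22.3% in the other libraries, and it held the lowest FF value of 10 of the 38 members, ACSL4, SLC25A20, ACADL, ACADM, HADHA, HADHB, HADH, DECR1, ETFA and ETFDH. Total counts ran from 12299220 to 16021200 in FF and from 12942198 to 18120922 in RES.

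Long-chain fatty acids enter cells with the help of transport proteins, are carried through the cytosol by fatty acid binding proteins, and are joined to coenzyme A by acyl-CoA synthetases. Carnitine palmitoyltransferases and a carrier move the acyl groups into mitochondria, where beta-oxidation shortens them and electron transfer flavoprotein passes the electrons to the respiratory chain. PPAR transcription factors bind fatty acids and control many of these genes. In the follicle, beta-oxidation in the oocyte and its cumulus cells is known to accompany maturation.

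Between the diets, members were called in both directions, at a share near that of all named genes. Of the 37 members other than FABP3, ACSL3 and PPARG were higher in RES, and SLC27A1, ACSL6 and ANGPTL4 were lower (edgeR quasi-likelihood test, Benjamini-Hochberg adjusted p under 0.05 over all named genes). The other 32 did not pass. These 2 higher and 3 lower members stand beside 13.9% of all named genes called in either direction, 8.19% higher and 5.7% lower, so the share of members called was near the background. A positive log2 fold change was seen in 18 of the 37, with a median of -0.05, against 47.3% positive and a median of -0.02 over all named genes. At an unadjusted p under 0.05 there were 12 members, beside 29.9% of all named genes. No beta-oxidation gene was among the 5 called, with DECR1 just outside the threshold. Members called lower were 4 with DESeq2's Wald test, with DESeq2 size factors or upper-quartile factors in edgeR and with filterByExpr, the fourth being DECR1 (adjusted p of 0.0369, 0.0498, 0.0303 and 0.0408). Without FF sow 10 the same 5 members were called, and SLC25A20 and DECR1 joined them as lower (log2 fold changes of -0.34 and -0.43, edgeR adjusted p = 0.0457 and 0.0129). Other fits lost calls, with 0 members higher and 1 lower without RES sow 1, and 0 higher and 2 lower without RES sow 12.

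**Figure D1:**
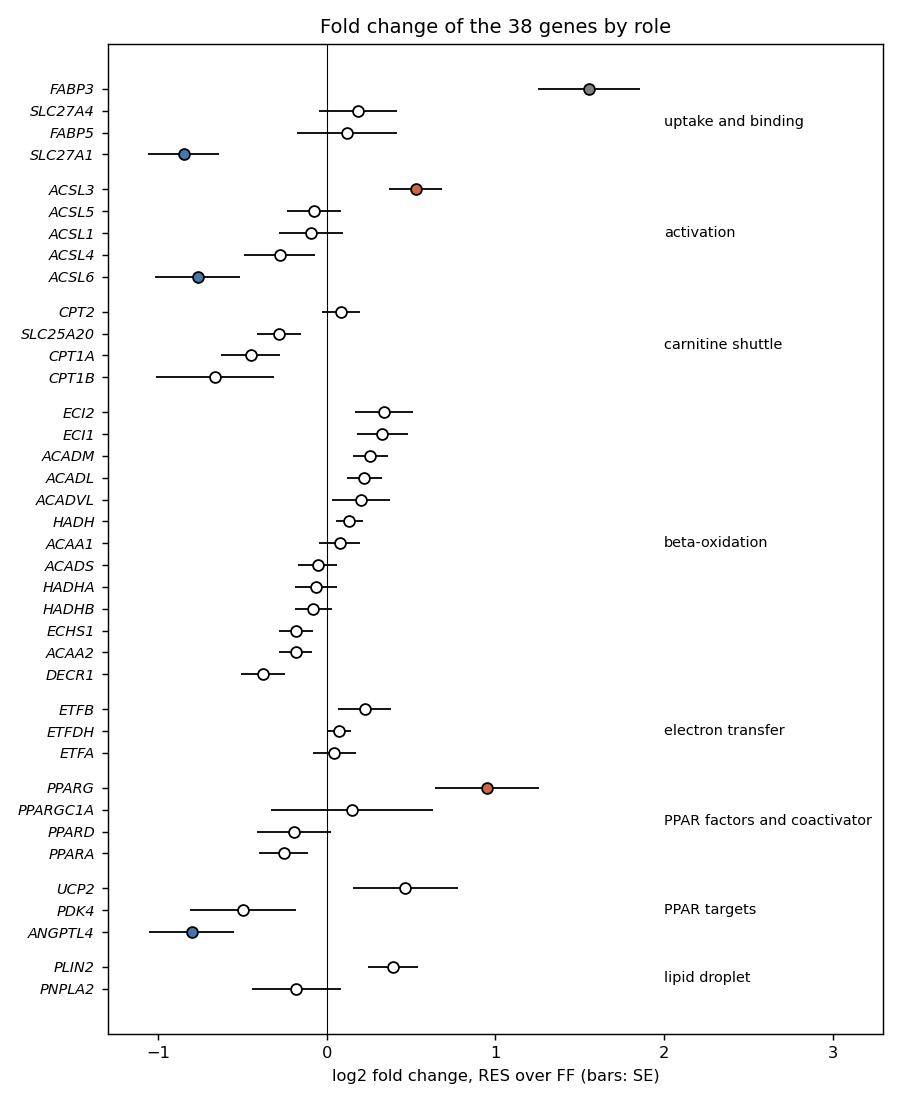
Log2 fold change of RES over FF (x axis) for the 38 genes (y axis), grouped by role, with the standard error as bars. Filled points passed the test (orange higher, blue lower), open points did not, and the grey point is FABP3, which was not tested. FABP3 lies at 1.55, and 13 of the other 37 genes lie within 1 standard error of 0.

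Among the genes of uptake and binding, FABP3 encodes a fatty acid binding protein best known from heart and skeletal muscle (identifier ENSSSCG00000036883, chromosome 6, 87943003 to 87950708, minus strand of Sscrofa11.1). Its normalized count, which is the count divided by the size factor of the library, was lowest at 89.4, had a median of 156 and was highest at 317 in FF. In RES it ran from 144 through a median of 407 to 1257. The groups overlapped, but 13 RES sows exceeded the median of FF and 9 exceeded every FF sow. The means were 175 ± 69.1 (SD, n = 13) and 536 ± 367 (SD, n = 14), and edgeR's fitted log2 fold change, which rests on TMM scaling, was 1.55 (SE 0.30), the 13th largest rise among the named genes. RES sows differed more among themselves, with a coefficient of variation of 68.5% against 39.4% in FF.

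SLC27A1 encodes a fatty acid transport protein of the cell surface (chromosome 2, 60203374 to 60235689, minus strand). Its normalized count ran from 75.1 through a median of 167 to 231 in FF and from 30.6 through 84.1 to 167 in RES. Each of the 14 RES values was under the median of FF, and 6 were under every FF value. It fell by 0.85 on the log2 scale (SE 0.21, edgeR adjusted p = 0.0077). SLC27A4, another transport protein, ran from 4.47 through 9.61 to 16.2 in FF and from 4.36 through 10.6 to 21.8 in RES, and FABP5, a second binding protein, had a log2 fold change of 0.12 (SE 0.30). The groups overlapped almost fully for both of these genes of low count.

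The 5 acyl-CoA synthetases went different ways. ACSL3, the form known from the endoplasmic reticulum and lipid droplets (chromosome 15, 124741986 to 124816955, plus strand), ran from 715 through a median of 874 to 1362 in FF and from 825 through 1176 to 2588 in RES. The lower ends of the groups overlapped, while 13 of 14 RES sows exceeded the FF median and 6 exceeded every FF sow. It rose by 0.53 on the log2 scale (SE 0.16, edgeR adjusted p = 0.0267). ACSL6, known mostly from brain and germ cells (chromosome 2, 134210915 to 134278860, minus strand), ran from 911 through 1419 to 3230.2 in FF and from 374 through 944 to 1937 in RES. It fell by 0.77 on the log2 scale (SE 0.25, edgeR adjusted p = 0.0417), with 7 RES sows below every FF sow. ACSL4, the form that prefers arachidonic acid, ran from 926 through 3408 to 6169 in FF and from 1475 through 3059.8 to 6057 in RES, with wide overlap. Its log2 fold change was -0.28 (SE 0.21) over all sows, but -0.995 (SE 0.19, edgeR adjusted p = 0.00832) in the upper and 0.53 (SE 0.24, edgeR adjusted p = 0.393) in the lower of 2 groups of libraries that differ in the share of high-quality bases. The difference between these groups was -1.52, with an unadjusted p of 6.24e-05 that did not pass after adjustment (edgeR adjusted p = 0.16). ACSL1 showed -0.09 (SE 0.19) and ACSL5 -0.08 (SE 0.16), and neither passed. Exons of ACSL5 overlap a gene on the opposite strand. Since the counting set no strand option, reads of the shared stretch may be lost or misassigned, and its count may be too low or too high.

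No gene of the carnitine shuttle passed in edgeR over all sows, and 2 of the 4 had an unadjusted p under 0.05. With 1 library left out, CPT1A was called in 3 and SLC25A20 in 1 of 27 fits. With limma voom, CPT1A and SLC25A20 were called lower. CPT1B, the muscle form of the gatekeeping enzyme, ran from 2.82 through 6.67 to 25.3 in FF and from 1.09 through 3.84 to 11.0 in RES, and its log2 fold change was -0.66 (SE 0.35, edgeR adjusted p = 0.203) and -0.36 without FF sow 10. CPT1A, the liver form, had a log2 fold change of -0.45 (SE 0.17, edgeR adjusted p = 0.0789), and 1 of 14 RES sows lay above the FF median. SLC25A20, the carnitine-acylcarnitine carrier, had a value of -0.28 (SE 0.13) and CPT2, the enzyme on the matrix side, of 0.08 (SE 0.11).

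None of the 13 beta-oxidation genes passed in edgeR with TMM scaling over all sows, 4 had an unadjusted p under 0.05, and with limma voom ACADM was called higher and DECR1 lower. ACADM was also called in 1 of the 27 fits that left out 1 library. In the edgeR fit over all sows their log2 fold changes lay between -0.38 and 0.34. DECR1, the reductase needed for unsaturated fatty acids, ran from 808 through 1584 to 2358 in FF and from 919 through 1287 to 1998 in RES. Its log2 fold change of -0.38 (SE 0.13) lay just outside the threshold (edgeR adjusted p just above 0.05), and it was called in 8 of the 27 fits that left out 1 library, and 1 of 14 RES sows lay above the FF median. The acyl-CoA dehydrogenase ACADM, for medium chains, showed 0.26 (SE 0.11, edgeR adjusted p = 0.0969) and 8 RES sows above every FF sow. ACADL, for long chains, showed 0.22 (SE 0.11). HADHA and HADHB, the subunits of the trifunctional protein, showed -0.06 (SE 0.12) and -0.08 (SE 0.11). The isomerases ECI1 and ECI2, which shift double bonds, showed 0.33 (SE 0.15) and 0.34 (SE 0.17), with 12 and 11 of the 14 RES sows above the median of FF. ECI1 stood at 0.21 without RES sow 3. The very-long-chain dehydrogenase ACADVL stood at 0.20 (SE 0.17) and at 0.036 without RES sow 3, the sow that reached 230.1 against a highest FF value of 114, and the short-chain form ACADS stood at -0.05 (SE 0.11). ECHS1, the enoyl-CoA hydratase, and the thiolase ACAA2 both stood at -0.18 (SE 0.10), HADH at 0.13 (SE 0.08) and the peroxisomal thiolase ACAA1 at 0.08 (SE 0.12). For each of these genes the FF and RES values overlapped.

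Among the 3 electron transfer genes, ETFB ran from 77.1 through 133 to 201 in FF and from 78.3 through 166 to 314 in RES, and its log2 fold change was 0.22 (SE 0.16) and 0.13 without RES sow 3, and ETFA and ETFDH stood at 0.04 (SE 0.13) and 0.07 (SE 0.07). ACADVL, ECI1, ECI2, ACAA1 and ETFDH share exonic sequence with genes on the opposite strand and are uncertain for the same reason as ACSL5.

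PPARG (chromosome 13, 68301566 to 68433951, plus strand), the receptor known to be abundant in granulosa cells, ran from 462 through 1272 to 2862 in FF and from 592 through 2197 to 4911 in RES. It rose by 0.95 on the log2 scale (SE 0.31, edgeR adjusted p = 0.0392), with 11 of 14 RES sows above the FF median and wide overlap. PPARA, the form known for driving oxidation in liver, ran from 56.2 through 80.0 to 117 in FF and from 47.2 through 56.4 to 107.8 in RES, and its log2 fold change was -0.26 (SE 0.14, edgeR adjusted p = 0.234). ANGPTL4, an inhibitor of lipoprotein lipase and a known PPAR target (chromosome 2, 70905767 to 70912892, minus strand), ran from 74.9 through 125 to 249.5 in FF and from 32.4 through 73.0 to 184 in RES. It fell by 0.80 on the log2 scale (SE 0.25, edgeR adjusted p = 0.0319). PDK4, which restrains glucose oxidation and is another known target, ran from 80.7 through 181 to 346 in FF and from 59.7 through 98.0 to 506 in RES, and its log2 fold change was -0.50 (SE 0.31). Without RES sow 4 it was -0.88 and called (edgeR adjusted p = 0.0144). PLIN2, a coat protein of lipid droplets, ran from 83.4 through 149 to 192 in FF and from 121 through 204 to 289 in RES, and its log2 fold change was 0.39 (SE 0.15, edgeR adjusted p = 0.0706). PPARD and the coactivator PPARGC1A had log2 fold changes of -0.19 (SE 0.22) and 0.15 (SE 0.48), and PPARGC1A ran from 9.63 to 256 among RES sows alone. UCP2, an uncoupling protein, stood at 0.46 (SE 0.31) and PNPLA2, the lipase that opens triglyceride stores, at -0.18 (SE 0.26). None of these 4 passed. The exons of UCP2 and PLIN2 also overlap another gene.

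**Figure D2:**
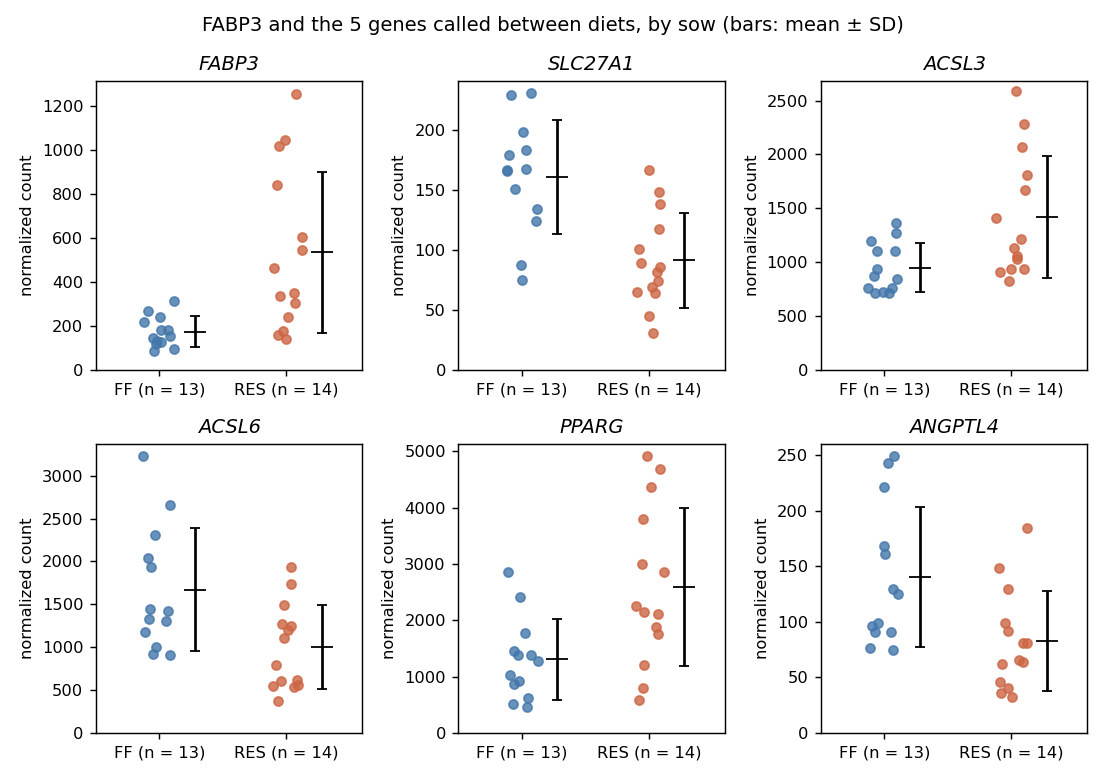
Normalized counts (y axis, from 0) by sow for FABP3 and the 5 genes called between the diets, with FF (n = 13, blue) and RES (n = 14, orange) on the x axis, 1 point per sow and bars for the mean ± SD. RES sows reach up to 1257 for FABP3, and the FF and RES points overlap for every gene.

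Of 107 other genes of lipid metabolism tested, 4 passed as higher, 7 as lower and 96 did not pass. The 11 called are 10.3% of them, beside 13.9% of all named genes, and the difference of the shares was not tested. DBI, an acyl-CoA binding protein, rose by 0.59 (SE 0.13), SCD, the stearoyl-CoA desaturase, by 0.84 (SE 0.28), PCCB, a subunit of propionyl-CoA carboxylase, by 0.43 (SE 0.14) and TMLHE, of carnitine synthesis, by 0.32 (SE 0.08) on the log2 scale. CROT, the peroxisomal carnitine octanoyltransferase, fell by 0.53 (SE 0.12), ECHDC3 by 0.59 (SE 0.16), ACSF2, an acyl-CoA synthetase, by 0.51 (SE 0.17) and ABCD4 by 0.50 (SE 0.16).

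The RNA came from captured cells sequenced in bulk, in which fewer cells of a type and less RNA per cell cannot be told apart. Of 8 listed endothelial markers tested, 4 were called lower in RES, and their summed normalized count ran from 1195 to 2405 in FF and from 839 to 2365 in RES. Of 7 theca markers 1 (CYP11A1) was called lower, and their sum, most of it LHCGR, which granulosa cells of large follicles also carry, ran from 6469 to 33073 in FF and from 2615 to 27205 in RES. The endothelial marker FABP4 was at 0 in 25 of 27 libraries. Granulosa markers summed to between 73058 and 123919 in FF and between 78690 and 151573 in RES, and 1 of the 9, HSD17B1, was called higher (log2 fold change 0.56, edgeR adjusted p = 0.0283). Of 8 stroma and smooth muscle markers 1 was called lower, and of 2 erythroid markers 1. Within the diets the theca sum correlated with PPARG at -0.85, with SLC27A1 at 0.75, with ANGPTL4 at 0.71, with FABP3 at -0.58, with ACSL6 at 0.54 and with ACSL3 at -0.34. The endothelial sum correlated with PPARG at -0.73, with SLC27A1 at 0.62, with ANGPTL4 at 0.55, with FABP3 at -0.48, with ACSL6 at 0.43 and with ACSL3 at -0.42. With FABP3, the granulosa sum correlated at 0.23 and the stroma and smooth muscle sum at -0.09. The summed macrophage and leukocyte markers ran from 86.1 to 419 in FF and from 46.4 to 334 in RES. They correlated with ACSL6 at 0.57, ACSL3 at -0.50, SLC27A1 at 0.45, FABP3 at -0.37, PPARG at -0.28 and ANGPTL4 at 0.10. The summed oocyte markers ran from 169 to 366 in FF and from 151 to 332 in RES. Most of this sum was GDF9, with means of 229 in FF and 210 in RES. ZP2, ZP3, ZP4, BMP15 and FIGLA were each at 0 in at least 22 of 27 libraries, so the sum describes mainly 1 gene. It correlated with CPT1A at -0.67, with ACSL4 at 0.64, with ACSL6 at 0.54 and with DECR1 at 0.52. Its r was -0.42 with ACSL3, -0.41 with FABP3, 0.30 with SLC27A1, -0.20 with ANGPTL4 and -0.02 with PPARG. The part of these markers in the results was not tested. With LHCGR left out of the theca list, a choice made after seeing the data, the theca values became -0.64 for PPARG, 0.47 for SLC27A1, 0.64 for ANGPTL4, -0.31 for FABP3, 0.11 for ACSL6 and -0.28 for ACSL3.

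The libraries fall into an upper and a lower group by the share of high-quality bases, with 7 FF and 7 RES sows in the upper and 6 FF and 7 RES in the lower. Log2 fold changes in the upper group alone were -1.22 for SLC27A1, -1.22 for ACSL6, 0.70 for ACSL3, 1.28 for PPARG and -1.19 for ANGPTL4. ACSL4 was also called lower there. In the lower group alone the 5 kept their sign at -0.51, -0.31, 0.31, 0.49 and -0.49, and none passed there. The interaction of diet and quality group was called for 0 genes by edgeR, with 1366 at an unadjusted p under 0.05. SLC27A1 stayed called with each of the 27 libraries left out in turn, ACSL3 in 24 of these fits, ANGPTL4 in 20, PPARG in 14 and ACSL6 in 13.

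The same genes were next compared with FABP3 across sows, as deviations from the mean of each diet in log2(normalized count + 1), so that the difference between the diets does not enter. Of the 37 members, 6 were called positive and 2 negative (permutation test with 100000 permutations, adjusted over all named genes), beside 13.7% and 5.85% of all named genes and 19.6% for either sign. At an unadjusted permutation p under 0.05 there were 13 members, beside 32.9% of all named genes. SLC27A1 had r = -0.81 (rho = -0.78, permutation p = 1e-05, the smallest possible, adjusted p = 0.000423) and ACSL6 r = -0.76 (rho = -0.74, permutation p = 2e-05, adjusted p = 0.000636). Sows with more FABP3 for their diet had less of both. RES sow 1 had the highest FABP3, at 1257, and the lowest SLC27A1, at 30.6, and ACSL6, at 374. ACSL3 had r = 0.74 (rho = 0.74, permutation p = 7e-05, adjusted p = 0.00151) and PPARG r = 0.61 (rho = 0.53, permutation p = 0.00108, adjusted p = 0.011). Of the oxidation genes, HADH, of the third step of the cycle, had r = 0.59 (rho = 0.58, permutation p = 0.00071, adjusted p = 0.00825) and ACADM r = 0.54 (rho = 0.60, permutation p = 0.00655, adjusted p = 0.0379). ETFDH had r = 0.54 (rho = 0.54, permutation p = 0.00215, adjusted p = 0.0177) and ETFB r = 0.50 (rho = 0.57, permutation p = 0.00635, adjusted p = 0.0373). Of the 13 beta-oxidation genes 11 and of the 3 electron transfer genes all had r above 0, as did 55.8% of all named genes, and no carnitine shuttle gene was called. ACSL5 and PLIN2 fell just short, with r of 0.49 (permutation p = 0.0109, adjusted p = 0.0539) and 0.49 (permutation p = 0.012, adjusted p = 0.0573). By rho PLIN2 passed (rho = 0.54, adjusted permutation p = 0.0358) and ACSL5 did not (rho = 0.46, adjusted permutation p = 0.0858). Among members that were not called, r was lowest for PPARA at -0.39 and ACAA2 at -0.33.

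**Figure D3:**
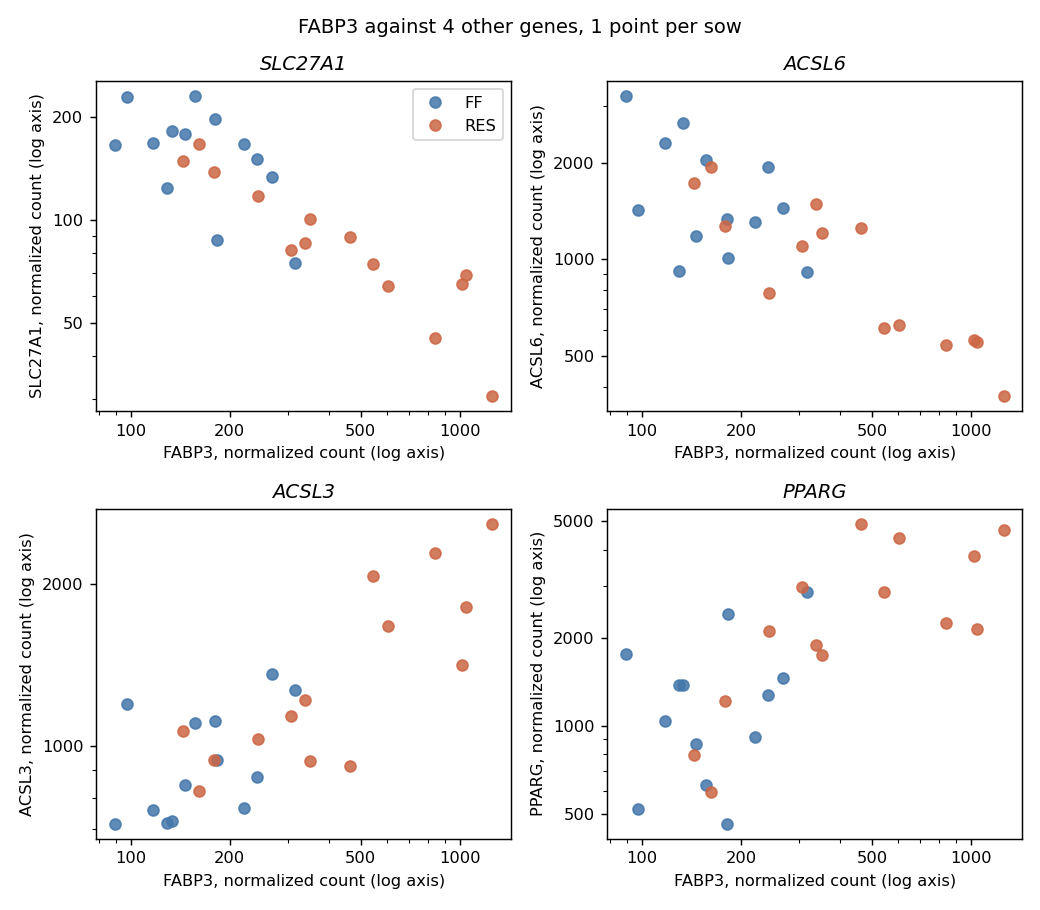
FABP3 (x axis, normalized count, log axis) against SLC27A1, ACSL6, ACSL3 and PPARG (y axes, normalized count, log axis), 1 point per sow, FF in blue and RES in orange. SLC27A1 and ACSL6 are low where FABP3 is high, while ACSL3 and PPARG are high there.

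Without RES sows 1 and 10, the 2 farthest from the FABP3 median, r was -0.75 for SLC27A1, -0.69 for ACSL6, 0.70 for ACSL3, 0.51 for PPARG, 0.52 for HADH, 0.47 for ACADM, 0.47 for ETFDH and 0.49 for ETFB. SLC27A1, ACSL6, ACSL3 and HADH stayed called without those 2 sows (adjusted permutation p between 0.00205 and 0.0431), PLIN2 joined them, and PPARG, ACADM, ETFDH and ETFB no longer passed, at r values between 0.47 and 0.51 over 25 sows. Within the upper and the lower quality group, r was -0.85 and -0.64 for SLC27A1, -0.85 and -0.54 for ACSL6, 0.61 and 0.86 for ACSL3, and 0.64 and 0.40 for PPARG. SLC27A1 and ACSL6 were called in the upper group and no member in the lower. In FF sows alone r was -0.55 for SLC27A1, -0.48 for ACSL6, 0.50 for ACSL3 and 0.33 for PPARG, and in RES sows alone -0.91, -0.89, 0.81 and 0.76. HADH had r = 0.26 in FF and 0.85 in RES. In RES alone 1491 named genes were called, among them ACSL3, HADH and PPARG as positive and SLC27A1 and ACSL6 as negative members. No named gene was called in FF alone, where 1240 had an unadjusted permutation p under 0.05, and the test of the difference between the diets called 0 of 11384 genes, with 638 at an unadjusted p under 0.05.

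**Figure D4:**
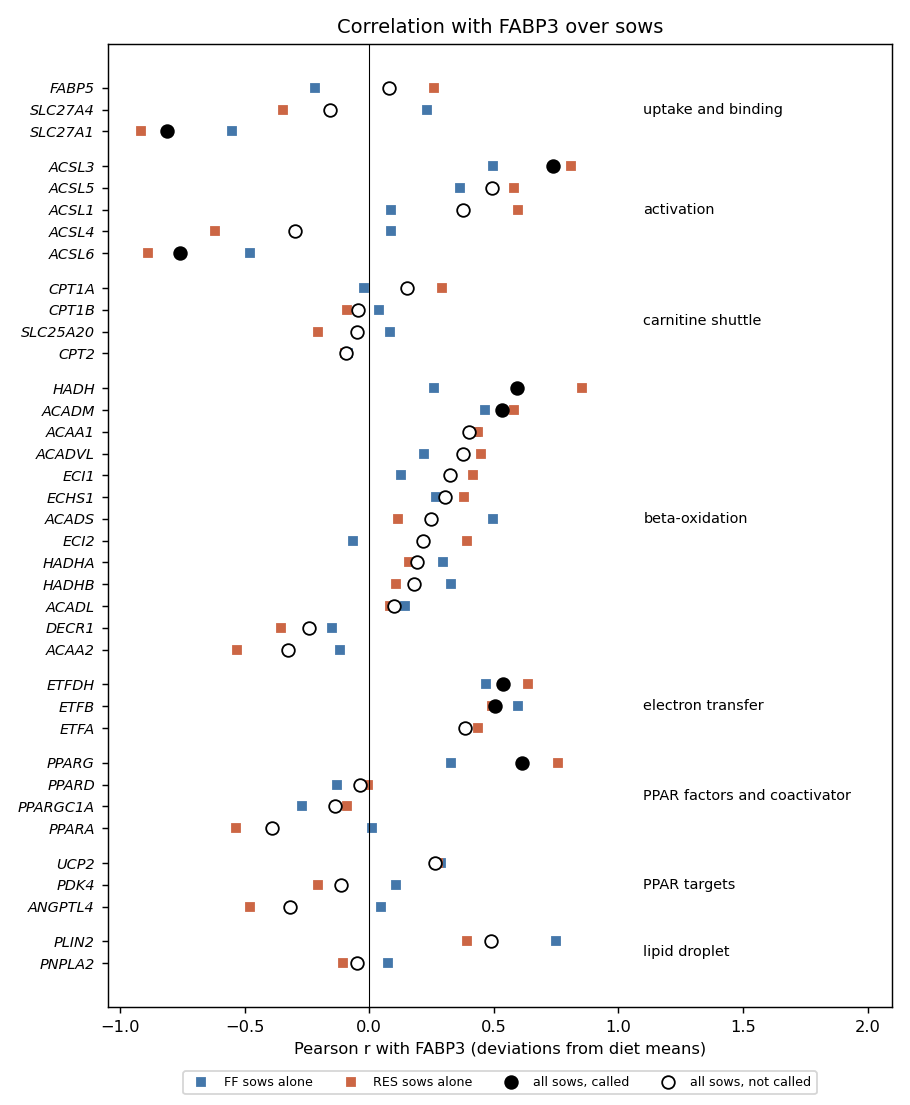
Pearson r with FABP3 (x axis) for the 37 other genes, by role (y axis), with all sows as circles, filled where called, and FF and RES sows alone as blue and orange squares. Among the circles, SLC27A1 and ACSL6 lie farthest to the left, at -0.81 and -0.76, and ACSL3 farthest to the right, at 0.74.

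Some members also followed each other across sows within the diets, given here as a description over 27 sows that share libraries and depth. ACADM and ETFA had r = 0.86, SLC25A20 and HADHA 0.80, ACADVL and ECI1 0.78, and HADHA and HADHB 0.75. PPARG was opposed to SLC27A1, with r = -0.80, and to ANGPTL4, with r = -0.79. The median over all 703 pairs of members was 0.07, against 0.01 over all pairs of named genes. By role it was 0.43 for electron transfer, 0.21 for the carnitine shuttle, 0.17 for beta-oxidation, 0.02 for the lipid droplet pair, -0.06 for the PPAR factors, -0.07 for uptake and binding, -0.12 for the PPAR targets and -0.21 for activation.

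HADHA and HADHB lie head to head on chromosome 3, and the 221 bases between their starts are shown because the pair varied together. The 250 bases before the RefSeq start of FABP3 and of the 4 members with the largest absolute r with it across sows are shown for comparison. Sequences were read from Sscrofa11.1, 5′ to 3′ on the strand of the gene (the plus strand for the pair), with AGGTCA, a half-site of nuclear receptors such as PPAR, and GGGCGG, the GC box, on either strand in capitals.
FABP3, chr6:87950709-87950958, minus strand: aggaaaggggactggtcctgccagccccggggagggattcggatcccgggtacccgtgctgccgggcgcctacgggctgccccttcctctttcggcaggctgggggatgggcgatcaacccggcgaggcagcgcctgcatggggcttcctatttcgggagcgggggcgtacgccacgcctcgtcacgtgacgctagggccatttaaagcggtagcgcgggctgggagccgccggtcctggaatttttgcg
SLC27A1, chr2:60235690-60235939, minus strand: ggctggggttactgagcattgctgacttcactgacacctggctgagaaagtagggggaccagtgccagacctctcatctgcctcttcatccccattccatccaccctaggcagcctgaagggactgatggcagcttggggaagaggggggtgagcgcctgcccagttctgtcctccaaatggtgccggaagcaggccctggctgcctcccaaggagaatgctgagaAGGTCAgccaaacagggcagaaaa
ACSL6, chr2:134278861-134279110, minus strand: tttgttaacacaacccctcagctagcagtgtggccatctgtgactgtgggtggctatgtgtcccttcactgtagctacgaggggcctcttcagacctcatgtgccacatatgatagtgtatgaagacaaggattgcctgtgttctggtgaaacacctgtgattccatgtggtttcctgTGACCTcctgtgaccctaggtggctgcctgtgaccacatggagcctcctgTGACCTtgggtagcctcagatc
ACSL3, chr15:124741736-124741985, plus strand: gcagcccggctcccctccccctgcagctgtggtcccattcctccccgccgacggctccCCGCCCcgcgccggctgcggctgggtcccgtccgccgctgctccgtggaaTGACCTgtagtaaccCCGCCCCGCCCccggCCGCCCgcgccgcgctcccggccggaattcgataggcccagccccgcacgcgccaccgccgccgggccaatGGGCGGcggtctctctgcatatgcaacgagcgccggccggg
PPARG, chr13:68301316-68301565, plus strand: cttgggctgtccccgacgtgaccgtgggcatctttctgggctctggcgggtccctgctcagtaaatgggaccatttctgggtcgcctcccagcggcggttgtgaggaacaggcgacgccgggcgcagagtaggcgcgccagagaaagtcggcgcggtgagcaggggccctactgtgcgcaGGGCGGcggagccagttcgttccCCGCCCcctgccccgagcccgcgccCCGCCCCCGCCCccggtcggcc
HADHB to HADHA, chr3:112753122-112753342, plus strand: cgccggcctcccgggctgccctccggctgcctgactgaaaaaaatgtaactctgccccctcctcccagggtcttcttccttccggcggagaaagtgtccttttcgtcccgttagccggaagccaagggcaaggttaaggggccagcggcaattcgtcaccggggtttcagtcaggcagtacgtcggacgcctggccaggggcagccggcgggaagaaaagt

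AGGTCA on either strand was found before SLC27A1, ACSL3 and ACSL6 but not before FABP3 or PPARG, and before 7 of the 38 members (18.4%) against 12.2% of 19531 protein-coding genes. A direct repeat of this half-site with 1 base between, searched on both strands, was found before 0 members and 0.0256% of all genes. GGGCGG was found before 22 members (57.9%) against 45.9%, with 5 copies before ACSL3. The windows of the members were richer in G and C, at a median of 62.8% against 57.6% over all protein-coding genes. The shared interval of HADHA and HADHB held neither AGGTCA nor GGGCGG. A match describes letters only and is not a site.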

How the data were processed

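Libraries were made from rRNA-depleted RNA of mural granulosa cells of 13 FF and 14 RES sows. As the file headers, labels and methods state, the authors aligned reads to Sscrofa11.1 with HISAT2 2.2.1, removed PCR copies with UMI-tools 1.1.4 and counted read pairs on exons with featureCounts 1.6.2 and annotation release 110, without a strand option. The deposited values are raw counts per gene and library. Replicates are single sows.

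The members and gene lists were chosen with earlier results of these data known. Symbols came from a table of Ensembl identifiers, and positions and sequences from RefSeq. Of 35670 identifiers, 17467 had a mean count of at least 5, of which 11385 named genes were tested after leaving out 37 small RNAs. The diets were compared with edgeR 4.0.16 (TMM, quasi-likelihood test, R 4.3.3), with a call at a Benjamini-Hochberg adjusted p under 0.05. Normalized counts used DESeq2 size factors. Correlations used Pearson's r with a permutation test and a pseudocount of 1 (Python 3.11.15). Named were all members and, of other lipid genes, the 4 called genes with the largest change in each direction and a mean of at least 20 normalized counts. On data simulated for the comparison of RES with FF, 86.7% of genes changed by a log2 fold of 1.0 and 53.5% of those changed by 0.6 were recovered among 11322 genes. Of the calls made there, 6.12% fell on unchanged genes. Alternatives were DESeq2, other scalings and filters, limma voom, a replicate block, quality groups and leaving out each library. The quality groups came from read statistics of the study. The correlations within quality groups and the theca list without LHCGR were added after seeing the data.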

Additional observations from a re-analysis of the deposited data

How the results depend on the processing

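The 1581 genes called between the diets became 1040 with a replicate block, 3177 with limma voom and sample weights and 2 in the lower quality group, and from 1164 to 2317 with 1 library left out, the most without RES sow 7. Members called higher, 2 in all, became 1 without a count filter (PPARG was lost), 0 with the block, 0 in the lower quality group and 4 with voom (ACADM and PLIN2 joined), and from 0 to 3 with 1 library left out (0 without RES sow 1 or 12). Members called lower, 3 in all, became 2 without a count filter (ACSL6 was lost), 4 in the upper quality group (ACSL4 joined), 0 in the lower quality group and 7 with voom (CPT1A, SLC25A20, DECR1 and PDK4 joined), and from 1 to 5 with 1 library left out (1 without FF sow 2 or 7 or RES sow 1, 6, 9 or 11, and 5 without FF sow 10 or RES sow 4). With the block, SLC27A1 and ANGPTL4 stayed called. Sows sharing a number did not vary together: r over 13 pairs had a median of 0.011, and 1 pair exceeded 0.1, so the number is only a name. Members called positive with FABP3, 6 in all, became 7 by rho and 8 with the quality group means removed. They became 2 without the log, 3 with TMM-scaled CPM, 3 without the 2 farthest sows, 0 with the block and 0 in either quality group. With 1 library left out they ran from 3 to 8 (3 without RES sow 10). Members called negative, 2 in all, became 0 in the lower quality group and stayed at 2 with each library left out. For the correlations the block meant r between RES minus FF differences over the 13 pairs of sows sharing a number, without RES sow 9. This r was 0.14 for HADH, 0.0058 for ETFDH and 0.024 for ETFB, against 0.59, 0.54 and 0.50 without the block. ACSL3 stood at 0.74 and SLC27A1 at -0.85. Since sows sharing a number did not vary together, these values cannot show the effect of a shared block. The cause of the drop was not tested. Fewer sows were tested in the quality groups.

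Reversed log2 fold changes, none called, were FABP5 -0.39, ACSL1 0.17, ETFA -0.0012, PNPLA2 0.040 (upper quality group only), ACSL1 0.030, PPARGC1A -0.042 (voom with sample weights), ACSL4 0.53, ACADS 8.1e-05, HADHA 0.13, HADHB 0.045, ACAA1 -0.084, PPARD 0.013 (lower quality group only), PPARGC1A -0.18 (replicate block). Reversed values of r with FABP3 in settings that kept sows of both diets, none called, were ACSL4 0.036, CPT1B 0.068, SLC25A20 0.14, ACADL -0.023, PPARD 0.25, ANGPTL4 0.28, PNPLA2 0.21 (lower quality group only), CPT1A -0.11 (upper quality group only), CPT1B 0.037, PPARD 0.15, PNPLA2 0.0034 (normalized counts without the log), CPT1B 0.087, ACADL -0.069, PPARD 0.14, PNPLA2 0.052 (without the 2 sows farthest from the FABP3 median), SLC25A20 0.042, PPARD 0.015, PNPLA2 0.0016 (quality group means removed), ACADL -0.18, ACADS -0.42, HADHA -0.28, HADHB -0.13, ECHS1 -0.15 (replicate block). With 1 library left out, log2 fold changes of ACSL1 -0.16 to 0.034, ACADS -0.095 to 0.020, ETFA -0.014 to 0.088, PPARGC1A -0.32 to 0.33 and r of FABP5 -0.025 to 0.19, CPT1B -0.16 to 0.052, CPT2 -0.16 to 0.014, SLC25A20 -0.16 to 0.052, ACADL -0.0044 to 0.16, PPARD -0.27 to 0.076, PNPLA2 -0.20 to 0.065 crossed 0. In FF sows alone r had the other sign for 11 of the 37 members (FABP5, SLC27A4, ACSL4, CPT1A, CPT1B, SLC25A20, ECI2, PPARA, PDK4, ANGPTL4, PNPLA2), between -0.22 and 0.23, and in RES sows alone for 0. CPT1B and UCP2 have no value under filterByExpr, which removed them. The widest standard errors of a log2 fold change were those of PPARGC1A (0.48) and CPT1B (0.35), and small differences in them are not detectable at this spread between sows. No called member's log2 fold change moved by over 1.5 times with 1 library left out, while 20 of the 32 that were not called did with at least 1 library.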
